A study of Mus musculus with 10 samples.

Results

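Imprinted growth genes are 9 genes, Igf2, H19, Meg3, Rian, Peg3, Dlk1, Cdkn1c, Grb10 and Plagl1, taken by name from the 54532 genes of the deposited gene table. Each symbol named 1 row of the table. They were selected on levels and fold changes already seen in these libraries and in the authors' deposited table, and which of those values weighed most is not recorded. Their levels and fold changes between groups are therefore given as a description, with no test. The tissue was the mouse left atrium around the openings of the pulmonary veins, with a short cuff of vein and without the appendage, taken at 7 weeks of age for RNA sequencing. The 6 CKO libraries came from mice homozygous for a tamoxifen-inducible Cre at the ROSA26 locus and for a floxed Tbx5 (R26creERT2/creERT2; Tbx5flox/flox). The 4 Ctrl libraries came from mice that carried the same Cre on both chromosomes and intact Tbx5 (R26creERT2/creERT2; Tbx5+/+). Both groups had tamoxifen on 3 days at 6 weeks of age and were sampled 1 week later, so Cre and tamoxifen were common to both. The ROSA26 promoter is active in nearly all cell types, so the Cre is not specific to atrial muscle. The cells in which Tbx5 was deleted cannot be told from whole tissue.

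Tbx5 encodes a T-box transcription factor of the atria. In an imprinted gene, methylation laid down in the egg or the sperm leaves the copy from 1 parent silent. Many imprinted genes act on growth: Igf2 encodes a growth factor, H19, Meg3 and Rian are long noncoding RNAs, Grb10 and Cdkn1c restrain growth signalling and the cell cycle, and Peg3 and Plagl1 encode zinc finger factors. Most of them are high in the fetus and much lower in adult tissue. Total RNA counts do not separate the parental copies, so nothing here bears on imprinting itself.

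The 9 genes lie in 5 places. H19, Igf2 and Cdkn1c are on distal chromosome 7, with 72.6 kb between H19 and Igf2 and 791.5 kb between Igf2 and Cdkn1c. Dlk1, Meg3 and Rian are on chromosome 12, with 77.7 kb between Dlk1 and Meg3 and 32.2 kb between Meg3 and Rian. Peg3 is on proximal chromosome 7, Grb10 on chromosome 11 and Plagl1 on chromosome 10. RefSeq promoter windows of GRCm38.p6, which run from 250 bases before to 50 bases after a transcription start, were given for 7 of the 9 genes, 12 windows in all. The windows below hold the starts of the transcripts that led the counts of Grb10 and Meg3, a second start of each for contrast, and the start of the Igf2 transcript that led in CKO 5, the library with the highest Igf2. Each is read 5′ to 3′ on the gene's strand. Capitals mark each CG dinucleotide and, in the second Meg3 window, also the T-box motif described after the sequences. The C of a CG is the base methylated in an imprint, but methylation was not measured here.
Grb10 upstream start, chr11:12037371-12037670, minus strand: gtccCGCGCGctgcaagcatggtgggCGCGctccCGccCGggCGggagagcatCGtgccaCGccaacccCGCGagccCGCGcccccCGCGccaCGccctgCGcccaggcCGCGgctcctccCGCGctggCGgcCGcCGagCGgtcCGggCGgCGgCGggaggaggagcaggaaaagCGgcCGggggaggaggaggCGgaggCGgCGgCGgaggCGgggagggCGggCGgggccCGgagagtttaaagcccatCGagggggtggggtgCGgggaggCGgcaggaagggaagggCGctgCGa
Grb10 downstream start, chr11:12027922-12028221, minus strand: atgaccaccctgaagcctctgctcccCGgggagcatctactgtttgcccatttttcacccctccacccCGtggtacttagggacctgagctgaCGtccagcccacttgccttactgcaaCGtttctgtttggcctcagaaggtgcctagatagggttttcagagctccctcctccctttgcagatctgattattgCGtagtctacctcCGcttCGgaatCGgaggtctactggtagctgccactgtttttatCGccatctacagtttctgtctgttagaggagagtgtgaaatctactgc
Meg3 upstream start, chr12:109540746-109541045, plus strand: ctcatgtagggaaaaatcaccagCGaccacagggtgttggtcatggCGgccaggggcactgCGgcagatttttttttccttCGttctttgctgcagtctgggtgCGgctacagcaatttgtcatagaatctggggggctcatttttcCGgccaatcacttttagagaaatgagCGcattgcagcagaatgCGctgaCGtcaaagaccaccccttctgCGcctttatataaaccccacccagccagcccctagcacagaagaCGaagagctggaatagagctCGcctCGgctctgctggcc
Meg3 downstream start, chr12:109545148-109545447, plus strand: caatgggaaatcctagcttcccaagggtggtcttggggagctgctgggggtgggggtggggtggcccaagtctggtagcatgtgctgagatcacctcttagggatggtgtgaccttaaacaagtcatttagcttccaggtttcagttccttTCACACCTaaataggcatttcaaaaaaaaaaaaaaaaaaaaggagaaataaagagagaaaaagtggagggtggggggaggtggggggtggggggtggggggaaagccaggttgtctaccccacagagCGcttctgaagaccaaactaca
Igf2 start of transcript ENSMUST00000000033, chr7:142657447-142657746, minus strand: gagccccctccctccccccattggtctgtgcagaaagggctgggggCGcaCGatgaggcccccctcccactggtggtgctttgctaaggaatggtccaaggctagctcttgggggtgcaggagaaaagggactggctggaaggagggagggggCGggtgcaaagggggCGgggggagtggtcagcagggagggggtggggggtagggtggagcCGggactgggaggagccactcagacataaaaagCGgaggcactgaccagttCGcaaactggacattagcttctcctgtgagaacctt
The upstream Grb10 window held 45 CG dinucleotides and the downstream window 9. The Meg3 windows held 13 and 1, and the Igf2 window 7. The median over the 12 windows was 11, against 7 over all 32851 windows. The T-box motif AGGTGTGA, searched on both strands, was found in 1 of the 12 windows and in 1.28% of all windows. The match stands in the downstream Meg3 window, on the opposite strand, from base 152. The motif TGCCGC of ZFP57, a factor that keeps imprints, was found on either strand in 4 of the 12 windows and in 11.6% of all. A match is a description of these letters only.

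4 of the genes are hosts of microRNAs, 13 mature ones in all with 13 different seeds. The arms of miR-483, within Igf2, and miR-675, within H19, and 1 arm each from Meg3 and Rian are shown to identify the small RNAs that these transcripts carry. Capitals mark the seed, bases 2 to 8.
miR-483-5p: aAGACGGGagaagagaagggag
miR-483-3p: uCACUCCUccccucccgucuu
miR-675-5p: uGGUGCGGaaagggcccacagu
miR-675-3p: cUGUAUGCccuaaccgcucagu
miR-770-3p (Meg3): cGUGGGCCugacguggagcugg
miR-370-3p (Rian): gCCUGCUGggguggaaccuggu
Libraries of long RNA do not measure mature microRNAs. The rows of these precursors held from 0 counts for Mir483 to 20 counts for Mir1188, summed over the 10 libraries, and no level is drawn from them.

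The 10 libraries held 8602794 to 10040808 estimated counts. Total Tbx5 was 167 to 425 CPM (counts scaled to library size) in CKO libraries and 89.6 to 158 CPM in Ctrl libraries, which does not check the deletion. In the main Tbx5 transcript, which has 9 exons, coverage of exon 3 over the median exon of the same library, was 0.175 to 0.618 in CKO and 0.903 to 1.70 in Ctrl libraries. Airway epithelium markers summed to 6073 CPM in CKO 4 and 3751 CPM in Ctrl 3, against at most 220.1 CPM elsewhere. Xist, a marker of female cells, was 1093 to 1371 CPM in CKO 1 to 3, 1004 and 1202 CPM in Ctrl 2 and Ctrl 1, and at most 6.44 CPM in the other libraries. Over all 17752 genes tested by edgeR's quasi-likelihood F test, 497 passed a Benjamini-Hochberg adjusted p of 0.05, which is 2.8% of them, 1.54% as higher and 1.26% as lower in CKO. With library size alone as the scaling, 44.1% of calls were higher in CKO, against 55.1% with TMM.

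In TPM, a level scaled for transcript length and depth, Rian was the most abundant of the 9 genes and Dlk1 had the lowest median. The median over the 10 libraries was 152.7 TPM for Rian, 70.0 for Grb10, 38.4 for Peg3 and 30.8 for Meg3. It was 20.7 TPM for H19, 12.7 for Plagl1, 10.9 for Cdkn1c, 3.92 for Igf2 and 0.250 for Dlk1. Rian lay above Grb10 in all 6 CKO and all 4 Ctrl libraries with no overlap of the ranges. Grb10 and Peg3 did not overlap among CKO libraries but did among Ctrl libraries, where Grb10 was higher in 2 of 4. The pairs Peg3 and Meg3, Meg3 and H19, Plagl1 and Cdkn1c, and Igf2 and Dlk1 overlapped within both groups, so their order is not clear of the spread between mice. The Igf2 level in this order leaves out reads on its exons that were given to another gene model, as described next. Its place in the order with those reads was not computed.

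Igf2, the fetal insulin-like growth factor, had 34.3 CPM in CKO 5, 10.7 CPM in CKO 2 and 1.12, 1.10, 1.11 and 1.92 CPM in CKO 1, 3, 4 and 6. Ctrl libraries 1 to 4 had 2.01, 0.983, 0.222 and 0.775 CPM. CKO 5 and CKO 2 alone lay above all Ctrl libraries, and the other 4 CKO libraries fell within the Ctrl range. The fitted log2 fold change, CKO over Ctrl, was 3.05 (SE 1.19) and it was 1.66 without CKO 5.

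These values depended on a second gene model over the same exons. Gm49394, annotated as a readthrough transcript on the same strand at chr7:142650769-142669942, shares 3596 of its 4738 exon bases with Igf2. The same 3596 bases make up 97.0% of the Igf2 transcript ENSMUST00000000033. Gm49394 had 0 CPM in CKO 5 and 1.79 CPM in CKO 2, and 16.8, 20.1, 18.3 and 23.5 CPM in CKO 1, 3, 4 and 6. Ctrl libraries 1 to 4 had 22.0, 17.9, 15.8 and 16.6 CPM. The 2 libraries with high Igf2 were thus the 2 with almost no Gm49394.

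Exon coverage showed where those reads lay. The 2 exons of Gm49394 that Igf2 does not have, chr7:142667493-142668312 and chr7:142669621-142669942, had a coverage of 0 in all 10 libraries. All coverage given to Gm49394 was on exons it shares with Igf2. In the shared last exon, chr7:142650769-142654052, Igf2 transcripts had a mean coverage of 4.20 reads per base in CKO 5 and 1.38 in CKO 2, and 0 in the other 4 CKO and in all 4 Ctrl libraries. Gm49394 had 2.25 to 3.14 in those 4 CKO libraries and 2.03 to 3.12 in Ctrl libraries for the same exon. Reads on this exon were therefore assigned mainly to Igf2 in 2 libraries and mainly to Gm49394 in 8.

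Summed over both models, the locus had 17.9, 12.5, 21.2, 19.4, 34.3 and 25.4 CPM in CKO 1 to 6 and 24.0, 18.9, 16.0 and 17.4 CPM in Ctrl 1 to 4. The groups overlapped: CKO 2, which was second highest for Igf2 alone, was the lowest of all 10 for the sum, and CKO 5 remained the highest. The sum averaged 21.8 ± 7.44 CPM in CKO (SD, n = 6) and 19.1 ± 3.49 CPM in Ctrl libraries (SD, n = 4). Its log2 fold change was 0.19 (SE 0.24), against 3.05 for Igf2 alone. Igf2 made up 85.7% of the summed counts in CKO 2 and 100% in CKO 5, and 1.39% to 8.37% in the other 8 libraries. CKO 5 also had the highest summed fibroblast, macrophage, mesothelium, fat and cycling cell markers of the 10 libraries; their part in its locus level was not tested.

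**Figure D1:**
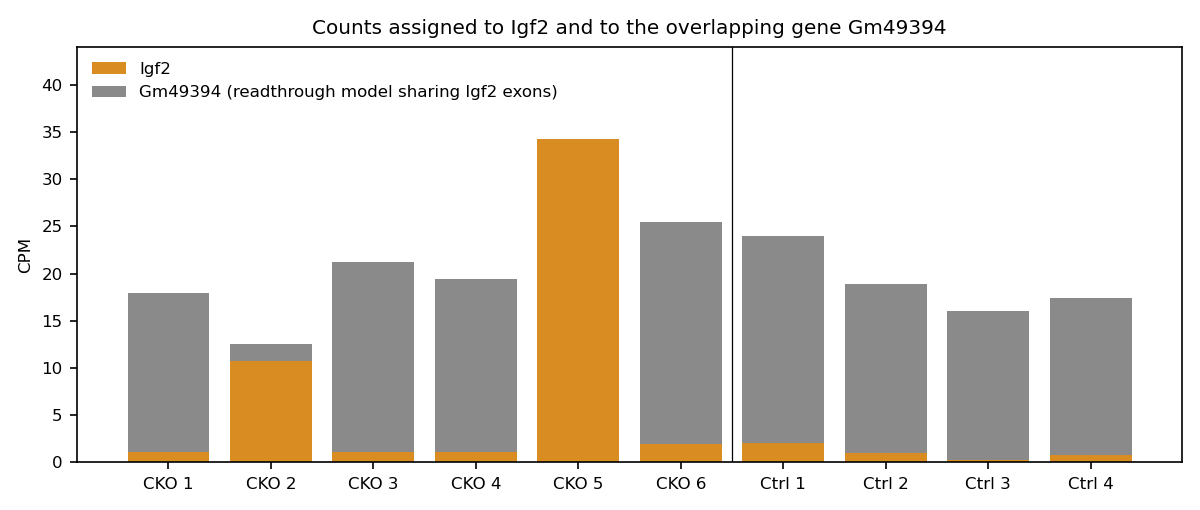
Stacked bars show CPM (vertical axis) given to Igf2 (orange) and to the overlapping model Gm49394 (grey) in each library, CKO left of Ctrl. The split turns over in CKO 2 and CKO 5, while the summed height runs from 12.5 to 34.3 CPM in CKO and from 16.0 to 24.0 CPM in Ctrl libraries.

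The transcripts within Igf2 also differed between those 2 libraries. In CKO 5, 195 of 314 counts were on ENSMUST00000000033, which begins in the Igf2 window printed above, and 116 on ENSMUST00000121128. In CKO 2, 91 of 102 counts were on ENSMUST00000163148, a 958-base transcript whose exons all lie within Gm49394. That short transcript gave CKO 2 the higher value per length, 20.9 TPM against 13.2 TPM in CKO 5, where CPM had the opposite order.

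H19, the noncoding RNA transcribed next to Igf2 from the other parental copy, ran from 11.6 to 22.0 CPM in CKO libraries with a median of 17.4 CPM. Ctrl libraries 1 to 4 had 17.4, 11.3, 11.9 and 12.6 CPM. CKO 1, 4 and 5 lay above all Ctrl libraries, and the groups overlapped through Ctrl 1 and the other CKO libraries. On the log2 scale the fold change was 0.37 (SE 0.20). In TPM the group means were 22.2 ± 4.98 in CKO and 21.8 ± 10.2 in Ctrl libraries (SD, n = 6 and 4).

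Grb10, an adaptor that binds insulin and IGF receptors and restrains their signalling, was the 1 member whose groups did not overlap, where 5.72% of all tested genes have none. It had 205.6, 184.0, 161.4, 169.0, 205.6 and 174.3 CPM in CKO 1 to 6 and 129.4, 126.3, 123.1 and 113.6 CPM in Ctrl 1 to 4. All 6 CKO libraries lay above all 4 Ctrl libraries. In TPM the groups did not overlap either but lay closer, at 68.6 to 81.4 in CKO and 58.9 to 66.75 in Ctrl libraries. The group means were 75.3 ± 4.64 TPM in CKO and 62.4 ± 3.47 TPM in Ctrl libraries (SD, n = 6 and 4). CKO 5, at 205.6 CPM, was the lowest CKO library in TPM. The log2 fold change, fitted on counts, was 0.57 (SE 0.10) and ran from 0.54 to 0.61 with any 1 library left out. It was also the 1 of the 8 tested members past the adjusted p of 0.05 in the fit over all genes; the background of such calls was 2.8%, and nothing is read from that count because values of this contrast were known when the genes were chosen. It missed that threshold without CKO 2 and CKO 5 (log2 fold change 0.53).

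Grb10 counts lay mostly on 1 transcript in both groups. ENSMUST00000093321, which begins in the upstream, CG-rich window, held 91.4% of Grb10 counts in CKO and 91.7% in Ctrl libraries. ENSMUST00000109654, which begins in the downstream window, held 0.0737% to 1.76% in CKO and 0.052% to 0.664% in Ctrl libraries. The 2 genes with the pattern most like Grb10 over the 10 libraries, by Pearson's r of log2 CPM, were Postn and Kif4, both at 0.98. Neither overlaps between the groups, and this separation is part of r. Postn averaged 613.8 CPM in CKO and 153.9 CPM in Ctrl libraries, and Kif4 7.06 and 0.679 CPM. Among markers of other cells, fibroblast markers summed to 7098 to 13792 CPM in CKO and 3418 to 6299 CPM in Ctrl libraries, and cycling cell markers to 94.1 to 307.3 CPM in CKO and 36.7 to 68.4 CPM in Ctrl libraries. 1 of 8 fibroblast and 5 of 6 cycling cell markers were called higher in CKO. Postn is itself among the 8 fibroblast markers and is part of their sum. Macrophage markers summed to 827.4 to 1416 CPM in CKO and 460.9 to 827.8 CPM in Ctrl libraries, with 2 of 6 called higher. Endothelium markers summed to 912.6 to 1043 CPM in CKO and 679.2 to 864.5 CPM in Ctrl libraries, with 0 of 6 called. Atrial muscle markers summed to 26870 to 41460 CPM in CKO and 35600 to 40559 CPM in Ctrl libraries, so these sums overlapped. Of the 8 atrial muscle markers, 4 were called lower in CKO. No marker of these lists was at 0 in all libraries; their part in Grb10 was not tested. In bulk tissue a change in the number of cells of a type cannot be told apart from a change in RNA per cell.

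Plagl1, a zinc finger factor known in the mouse as a regulator of other imprinted genes, had 13.5, 28.8, 28.8, 15.8, 23.6 and 25.2 CPM in CKO 1 to 6. It had 6.02, 19.4, 20.2 and 8.19 CPM in Ctrl 1 to 4. CKO 2, 3, 5 and 6 lay above all Ctrl libraries, while CKO 1 and CKO 4 fell between the low pair Ctrl 1 and 4 and the high pair Ctrl 2 and 3. The log2 fold change was 0.75 (SE 0.36). The leading transcript, ENSMUST00000121646, had 67 to 223 counts in each CKO library, 97 in Ctrl 2, 159 in Ctrl 3 and 0 in Ctrl 1 and Ctrl 4. The 2 Ctrl libraries low in CPM were thus the 2 with no count on that transcript. Ctrl 4 had 58 counts on ENSMUST00000121325, which begins close downstream, so the split of counts between these transcripts is uncertain. In TPM, Ctrl 1 to 4 had 12.89, 14.55, 11.09 and 8.96, so Ctrl 1 was low in CPM only. The lowest of the 10 libraries in TPM was CKO 5, at 7.88. The group means were 15.2 ± 5.49 TPM in CKO and 11.9 ± 2.40 TPM in Ctrl libraries (SD, n = 6 and 4).

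Meg3, a noncoding RNA of the chromosome 12 cluster, had 32.3, 51.9, 53.1, 44.8, 22.3 and 40.8 CPM in CKO 1 to 6. It had 56.4, 68.9, 41.9 and 189.4 CPM in Ctrl 1 to 4. Ctrl 4 stood far above the other 9 libraries, and Ctrl 3 fell within the CKO range. The log2 fold change was -1.12 (SE 0.39) with all libraries and -0.45 without Ctrl 4. Most of the Ctrl 4 value was on ENSMUST00000146701, a transcript of 14548 bases that begins in the downstream Meg3 window and held 76.3% of its counts; the share was 30.2% to 70.8% in CKO and 55.2% to 58.4% in the other Ctrl libraries. The other Meg3 transcripts summed to 7.81 to 28.5 CPM in CKO and 17.8 to 45.0 CPM in Ctrl libraries. These groups overlapped, at a log2 fold change of -0.80 (SE 0.32).

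Other measures were set beside Meg3. Schwann cell and neuron markers summed to 21.7 to 38.3 CPM in CKO and 41.4 to 85.2 CPM in Ctrl libraries, with Ctrl 4 the highest. In Ctrl 1 to 3 they summed to 44.3, 41.4 and 51.5 CPM, an order opposite to that of Meg3. Of the 5 tested markers 1 was called lower in CKO, and none of the list was at 0 in all libraries. The 2 genes with the pattern most like Meg3 were Lonrf2, with r = 0.97, and Rufy3, with r = 0.96, over the 10 libraries. Gm26906, which overlaps the end of Meg3 on the other strand, averaged 7.14 ± 2.53 CPM in CKO and 14.1 ± 6.08 CPM in Ctrl libraries (SD, n = 6 and 4). The kit named in the labels does not mark strand, while StringTie was run with its stranded setting --rf, per the file headers. With strand unsettled, reads of Meg3 and Gm26906 cannot be told apart there. The part of the markers in Meg3 was not tested.

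Rian, the next noncoding RNA of the cluster and host of many small RNAs, ran from 93.3 to 148.1 CPM in CKO libraries with a median of 115.4 CPM. It had 169.3, 190.9, 94.9 and 162.0 CPM in Ctrl 1 to 4. Ctrl 1, 2 and 4 lay above all CKO libraries, and Ctrl 3, one of the libraries with airway transcripts, below all but 1. This gave a log2 fold change of -0.41 (SE 0.19). Ctrl 4, the highest library for Meg3, was behind Ctrl 1 and Ctrl 2 for Rian, so in CPM the 2 neighbours did not share their highest library. In TPM they did: Rian had 257.8 TPM in Ctrl 4, 251.1 TPM in Ctrl 2 and 237.6 TPM in Ctrl 1. Mirg, the next noncoding RNA in line, averaged 10.5 ± 4.02 CPM in CKO and 15.8 ± 4.98 CPM in Ctrl libraries (SD, n = 6 and 4), and the groups overlapped.

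**Figure D2:**
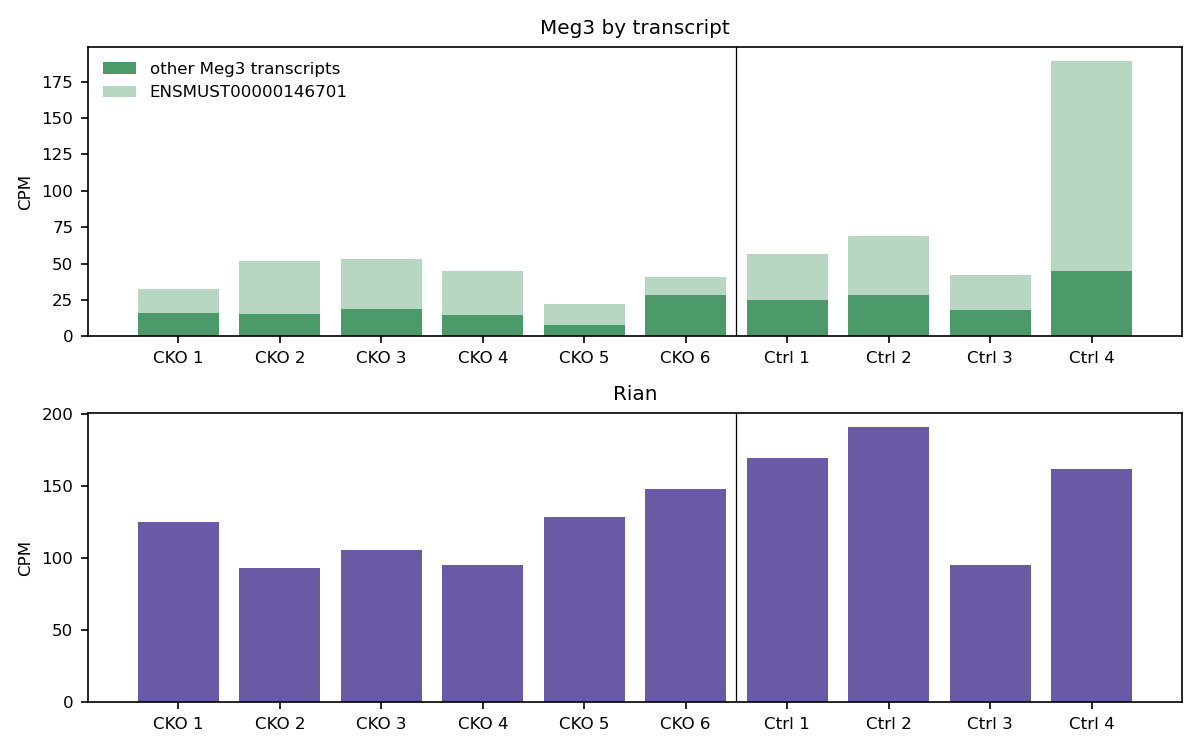
The upper panel shows Meg3 CPM per library, split into the transcript ENSMUST00000146701 (light) and all others (dark), and the lower panel Rian CPM, CKO left of Ctrl. Ctrl 4 stands apart for Meg3, at 189.4 CPM, but not for Rian, at 162.0 CPM.

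Dlk1, the transmembrane inhibitor of fat cell differentiation at the start of the cluster, was near the limit of detection. It had 3 to 11 counts in CKO and 3 to 8 counts in Ctrl libraries, or 0.336 to 1.11 CPM and 0.332 to 0.845 CPM. The groups overlapped fully but for CKO 4, and Dlk1 did not pass the filter on low counts. No fold change was fitted for it.

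Peg3, a zinc finger factor of proximal chromosome 7, ran from 131.9 to 185.9 CPM in CKO libraries with a median of 149.3 CPM. It had 230.8, 268.0, 138.5 and 235.5 CPM in Ctrl 1 to 4. Ctrl 1, 2 and 4 lay above all CKO libraries and Ctrl 3 within their range, the same arrangement of Ctrl libraries as for Rian. The log2 fold change was -0.50 (SE 0.17) and ran from -0.65 to -0.37 with any 1 library left out. It was -0.65 without Ctrl 3 and -0.60 without Ctrl 3 and CKO 4, the libraries with airway transcripts. The 2 most similar genes over the 10 libraries were Sec31b and Pdzd2, each at r = 0.97. Transcript ENSMUST00000051209 held 89.7% of Peg3 counts in CKO and 86.4% in Ctrl libraries.

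Cdkn1c, an inhibitor of cyclin-dependent kinases, had 6.21 to 7.75 CPM in CKO libraries with a median of 6.81 CPM, and 7.50, 9.94, 13.1 and 6.64 CPM in Ctrl 1 to 4. Ctrl 2 and 3 lay above all CKO libraries, and Ctrl 1 and 4 within their range. This gave a log2 fold change of -0.43 (SE 0.20), with -0.21 without Ctrl 3 and -0.18 without Ctrl 3 and CKO 4, the libraries with airway transcripts. The counts moved between its annotated transcripts: ENSMUST00000037287 held 36.7% of them in CKO and 75.2% in Ctrl libraries, with 0 in Ctrl 4. The 2 full-length transcripts overlap almost completely, and the antisense gene Gm44732 lies within them, so these shares are uncertain.

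**Figure D3:**
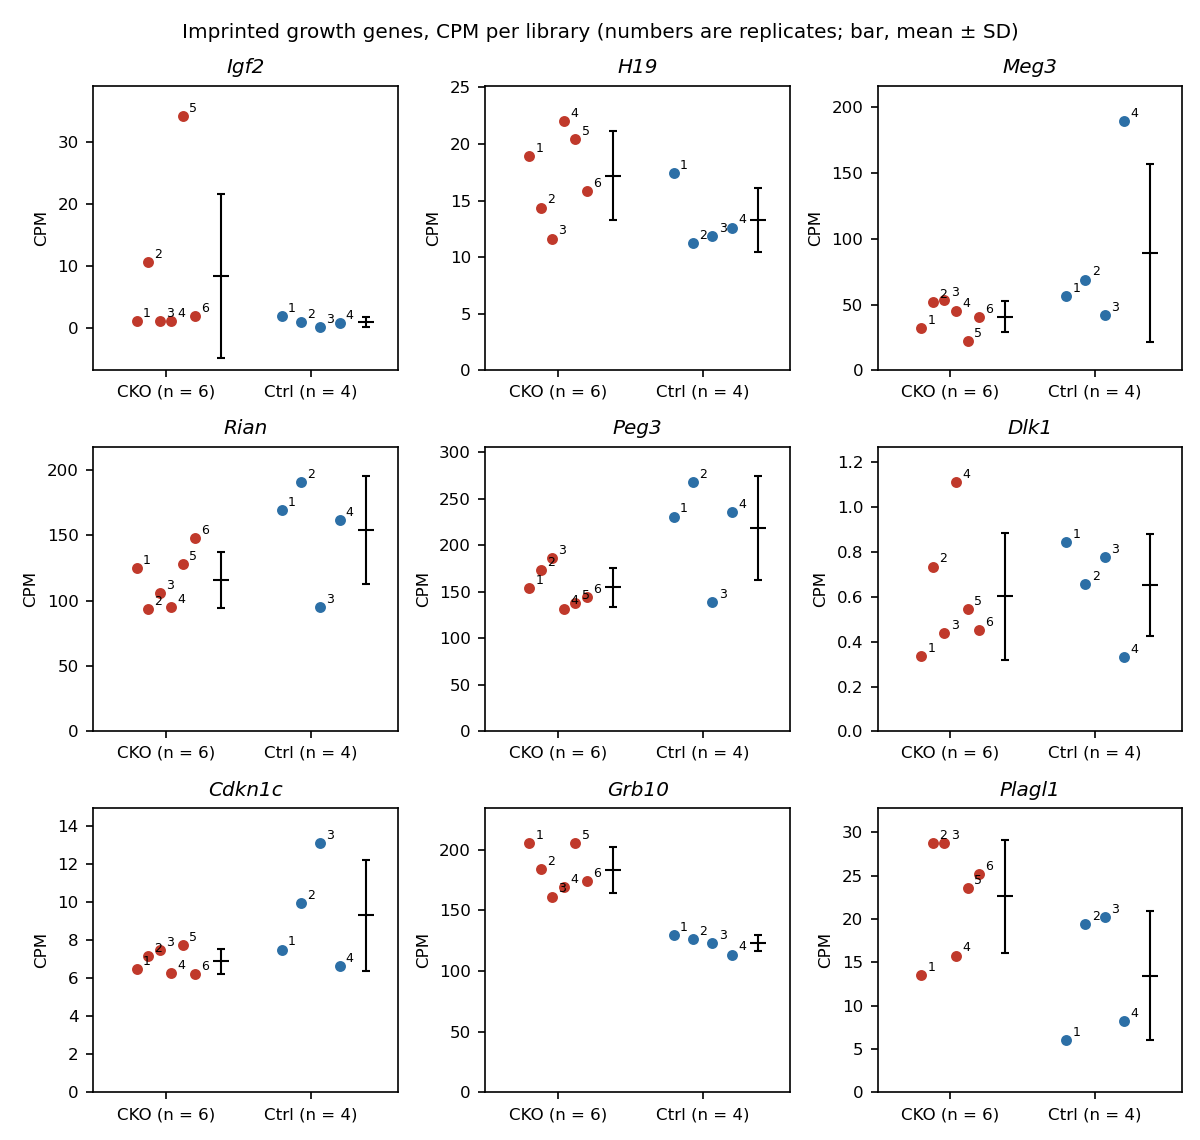
Each panel shows the CPM of 1 gene on a linear axis, with 1 numbered point per library, CKO in red to the left and Ctrl in blue to the right, and the mean ± SD in black. Grb10 is the panel without overlap; CKO 5 for Igf2, at 34.3 CPM, and Ctrl 4 for Meg3, at 189.4 CPM, are the points that stand apart.

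Among the 8 tested genes, 4 had a higher and 4 a lower mean fold in CKO. No sign changed in the 18 alternative fits that were run, 17 for Igf2. The size of the Igf2 value did change, to 0.19, when the locus was counted as 1 gene.

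**Figure D4:**
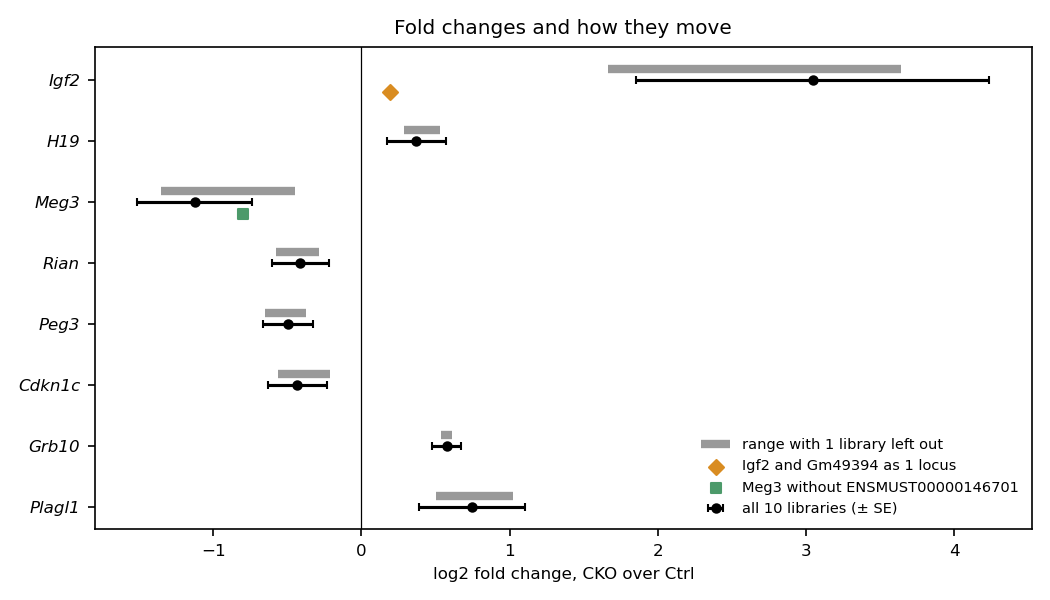
Points show the log2 fold change, CKO over Ctrl, with its SE for the 8 tested genes, and grey bars the range with 1 library left out. The diamond is Igf2 with Gm49394 counted as 1 locus, at 0.19, and the square Meg3 without ENSMUST00000146701, at -0.80.

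The differences between atrial regions were read from the authors' deposited table, which lists 8 of the 9 genes and not Dlk1. Its column for the regions does not state a direction or the genotypes used; positive values were read as higher around the pulmonary veins because Scgb1a1 and Myh11, genes of airway and smooth muscle, stand at 13.8 and 4.58 in the authors' deposited table. The regional comparison can hold libraries of the other comparisons, so their values are only set side by side. 5 of the 8 genes had a false discovery rate under 0.05 between regions in the authors' deposited table, where 12.2% of its 13646 genes have. Nothing is read from this or the next such counts, because these values were known when the genes were chosen.

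Igf2, H19 and Plagl1 were lower around the veins than in the appendage in the authors' deposited table, with log2 fold changes of -5.09, -2.04 and -1.87. Meg3 and Rian were higher there, at 2.24 and 1.23 in the authors' deposited table, and Mirg stood at 1.11. Peg3, Cdkn1c and Grb10, at -0.22, -0.46 and 0.14 in the authors' deposited table, had a false discovery rate of at least 0.372. The authors' deposited table counts Igf2 apart from Gm49394, which stands at 0.72 (false discovery rate 0.816), so its Igf2 value is open to the same split of reads; appendage libraries were not analysed here, and this was not tested.

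For CKO over Ctrl, the authors' deposited table had 3 of the 8 genes under a false discovery rate of 0.05 around the veins, where 5.5% of its genes have. They were Igf2 at 3.02 (0.0247), a value open to the split of reads with Gm49394, Meg3 at -1.15 (0.0164) and Grb10 at 0.56 (0.0203) in the authors' deposited table. In the appendage, 3 of the 8 had a rate under 0.05 in the authors' deposited table, where 34.7% of genes have: Peg3 at -1.69, H19 at -0.79 and Grb10 at 0.83. Grb10 was the gene under 0.05 in both regions in the authors' deposited table. Igf2 stood at -0.43 in the appendage in the authors' deposited table, with a rate of 0.812. No test of the difference between regions was made.

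**Figure D5:**
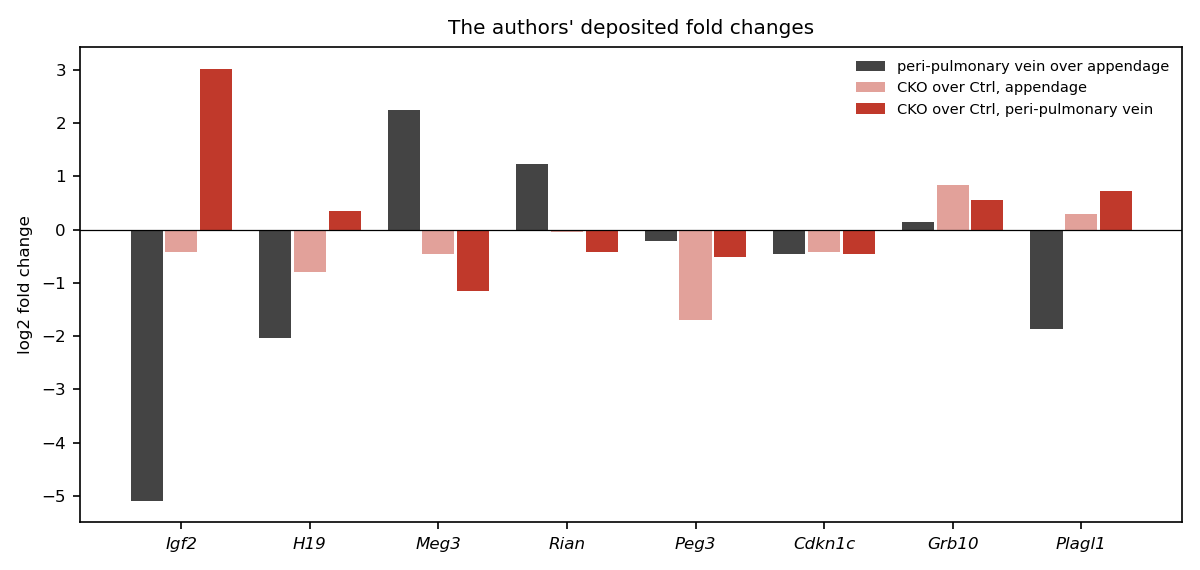
Bars show the log2 fold changes of the authors' deposited table for 8 genes: between the regions (dark), for CKO over Ctrl in the appendage (pale) and for CKO over Ctrl around the pulmonary veins (red). Igf2 has the lowest regional value, -5.09, and Peg3 the lowest appendage value, -1.69.

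Genes around the 9 were tested in the same fit over all genes. Of 64 other imprinted genes in the table, 48 were tested and 1, Peg13, passed as lower in CKO; 7 had an unadjusted p under 0.05. Over all tested genes 2.8% passed and 17% had an unadjusted p under 0.05, and no list is called apart from these shares. The list's median log2 fold change was -0.00, against -0.03 over all tested genes. Peg13, a noncoding RNA, fell to 51.3 ± 6.11 CPM in CKO libraries, against 72.6 ± 5.21 CPM in Ctrl libraries (SD, n = 6 and 4), with no overlap between the groups. Its log2 fold change was -0.50 (SE 0.10; edgeR adjusted p = 0.0255), and the adjusted p was above 0.05 in 8 of the 18 alternative fits, up to 0.28. Nap1l5 and Zrsr1 also did not overlap between groups, making 3 of the 48 where 5.72% of all genes have no overlap. They stood at log2 fold changes of -1.26 and -0.49 and missed the threshold in edgeR (adjusted p = 0.0928 and 0.0618); both were named after their values were seen.

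In the IGF axis, 28 of 30 genes in the table were tested and 1, Igfbp7, passed as higher in CKO, with 6 at an unadjusted p under 0.05. Igfbp7, a secreted IGF-binding protein, averaged 387.9 ± 75.9 CPM in CKO and 237.1 ± 38.7 CPM in Ctrl libraries (SD, n = 6 and 4), with no overlap. Its log2 fold change was 0.71 (SE 0.17; edgeR adjusted p = 0.0474), and it kept that call in 4 of 18 alternative fits, with an adjusted p up to 0.27. The list's median was 0.20. Of the receptors, named after their values were seen, Igf1r stood at -0.08 and Igf2r, which clears IGF2 from the cell surface, at 0.02, and neither passed.

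Of 15 tested factors that keep or read imprints, 0 passed in edgeR, with 5 at an unadjusted p under 0.05 and 1 called by DESeq2. The most abundant per length stood at 0.19 for Atrx, 0.35 for Zfp445, 0.13 for Trim28 and -0.10 for Eed on the log2 scale. Uhrf1, named after its values were seen, had the largest log2 fold change of the list, 1.56 (edgeR adjusted p = 0.0792), with overlap between the groups. Of the 15 factors, 10 stood above 0 and 5 below. Of 15 tested cell cycle inhibitors and their partners, 0 passed in edgeR, with 3 at an unadjusted p under 0.05 and 0 called by DESeq2; Cdk4 stood at 0.31, Ccnd2 at -0.28, Ccnd3 at 0.20 and Rb1 at -0.15. Of 14 tested Notch and preadipocyte partners of Dlk1, 0 passed in edgeR or DESeq2 and 0 had an unadjusted p under 0.05; Notch1 stood at 0.02, Notch2 at -0.03, Adam17 at 0.01 and Pparg at -0.41. The medians of these 3 lists were 0.19, 0.24 and 0.02.

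The 9 genes were also compared with each other within groups. For each of the 36 pairs, the deviations of log2 CPM from the group means were correlated over the 10 libraries, with exact two-sided permutation tests that shuffled libraries within groups, over 17280 orders. No pair passed a Benjamini-Hochberg adjusted p of 0.05, and 2 had an unadjusted p under 0.05. H19 and Plagl1 had r = -0.73 (permutation p = 0.00747, adjusted p = 0.22). Their Spearman's rho was -0.79 (permutation p = 0.00544, adjusted p = 0.196). Leaving out the 2 libraries whose H19 deviation lay farthest from the median deviation, Ctrl 1 and CKO 4, gave r = -0.53. In TPM the r of H19 and Plagl1 was -0.03. Meg3 and Grb10 had r = -0.68 (permutation p = 0.0122, adjusted p = 0.22) and rho = -0.71 (permutation p = 0.0227, adjusted p = 0.409). The same step for Meg3, which left out Ctrl 3 and Ctrl 4, gave this pair r = -0.82. In TPM their r was 0.07, so both relations were seen in CPM and not in TPM. The neighbours Meg3 and Rian had r = 0.12 in CPM (permutation p = 0.793, adjusted p = 0.91) and rho = -0.14 (permutation p = 0.742, adjusted p = 0.906), and r = 0.74 in TPM.

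For the genes whose most similar patterns were not given above, Pearson's r of log2 CPM over the 10 libraries was as follows. Igf2 was most like Cenpw and Nutf2 (r = 0.96 each), which were also highest in CKO 5 and CKO 2, at 4.58 and 4.41 CPM for Cenpw and 16.6 and 15.2 CPM for Nutf2. This likeness is to the counts given to Igf2 alone; for the summed locus CKO 2 was the lowest library. H19 was most like Hspa14 (r = 0.92) and Dph5 (r = 0.89), and Rian most like Ccr10 (r = 0.95) and Klhl22 (r = 0.93). Cdkn1c was most like Ubl3 (r = 0.91) and Pms1 (r = 0.90), and Plagl1 most like Pbx3 and Gm11946 (r = 0.91 each). The coefficients were picked as the highest over all genes ranked and are a description of these libraries.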

How the data were processed

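The libraries were prepared after ribosomal RNA removal with a TruSeq RNA kit, whereas the labels give the molecule as polyA RNA. The submitters' processing notes name TopHat2 2.1.1, the build mm10, StringTie 1.3.3, edgeR 3.18.1, limma 3.32.10 and R 3.4.0. StringTie used Ensembl release 94 of GRCm38 and assembled no new transcripts, per the file headers. The deposited gene table holds estimated counts, made from transcript coverage and a read length of 50, and they were rounded to whole numbers here. The deposited transcript files hold TPM and mean coverage per exon, per the file headers. The authors' deposited table holds log2 fold changes, p-values and false discovery rates for 13646 genes; its model is not given in the sources used here. Of the 20 library columns of the gene table, 10 match no sample here and were not used; appendage levels were therefore not analysed here.

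The filter filterByExpr left 17752 of the 33196 genes that had a count. After TMM scaling, CKO was set against Ctrl with edgeR 4.0.16 in R 4.3.3 (quasi-likelihood F test, genotype only, Benjamini-Hochberg threshold 0.05). DESeq2 1.42.0 was an alternative. CPM uses TMM-scaled library sizes. Precision is limited by 6 and 4 mice and by counting error at low counts. Correlations used log2(CPM + 1), and likeness was ranked over genes with a mean of at least 1 CPM. The fits and the pair tests were tested on simulated data. Named outside the 9 are called members of each pathway list, or, where none was called, its 4 most abundant by TPM, and the 2 genes most like each member. Members, lists and tests were chosen with earlier results of these data known. 2 alternatives, the summed Igf2 locus and Meg3 without its longest transcript, and the fit without CKO 2 and CKO 5, were chosen after seeing the data.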

Additional observations from a re-analysis of the deposited data

Results flagged for a closer look

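Igf2 in CKO 5, at 34.3 CPM, lay far from the other CKO libraries, of which the nearest, CKO 2, had 10.7 CPM. It was the 1 value set apart by a screen of 18 groups of libraries, 9 genes in each of the CKO and Ctrl groups. Its gap to CKO 2 was 0.71 of the range of the CKO libraries, against a limit of 0.625 for 6 libraries. Chance sets apart about 1 group in 20 if values are normally distributed, which was not checked. The 1 flag among 18 groups is near that rate, so nothing more is read from it. In CKO 5, 0 counts were given to Gm49394, the overlapping model. Gm49394 held 150 to 208 counts in CKO 1, 3, 4 and 6 and 142 to 208 counts in Ctrl libraries. With both models summed, CKO 5 was the highest library, at 34.3 CPM, next to 25.4 CPM in CKO 6. The sum was not screened for values set apart.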

How the results depend on the processing

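The number of genes called between CKO and Ctrl was 497. It was 1132 with DESeq2, 37 with the replicate number as a block, 208 without CKO 2 and CKO 5, and 190 to 607 with 1 library left out. Replicate numbers did not pair the libraries: same-numbered deviations correlated at 0.0453, 0.116, -0.377 and 0.0959, and with the block 0 members (Grb10 at an edgeR adjusted p of 0.137) and 0 genes of every list passed. Among members, 2 passed without Ctrl 3 and CKO 4, and 0 without CKO 2 and CKO 5. With 1 library left out, 1 to 2 members passed, Peg3 joining Grb10 without Ctrl 3. Over all genes, 509 were called without Ctrl 3 and CKO 4, and 607 without Ctrl 3. Nothing is read from the member calls in any fit, because values of this contrast were known when the genes were chosen. Other imprinted genes had 3 calls with DESeq2, 2 with library size only, 0 with no filter on low counts, 0 without CKO 2 and CKO 5, and 0 to 2 with 1 library left out. The IGF axis had 2 calls with DESeq2; 0 with library size only, no filter, the Xist covariate, without Ctrl 3 and CKO 4, or without CKO 2 and CKO 5; and 0 to 1 with 1 library left out. Imprint maintenance factors had 1 call with DESeq2, 1 with the Xist covariate and 0 to 1 with 1 library left out. Pairs of members had 0 to 1 past the threshold with 1 library left out, the 1 without CKO 1. The cause of these changes was not tested. In the fit with the block, CKO 5 and CKO 6 had no Ctrl library of the same number, so they added nothing to the CKO against Ctrl difference. The Igf2 log2 fold change was 1.31 in that fit. No value could be had without CKO 2 and CKO 5, where Igf2 did not pass the filter. At the depth used here Dlk1 could not be compared.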
